A study of Rattus norvegicus with 9 samples.

Results

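The 10 genes described here encode lysine deacetylases: Hdac1, Hdac2, Hdac3 and Hdac8 of class I, Hdac4, Hdac5 and Hdac9 of class IIa, Hdac6 of class IIb, Hdac11 of class IV and Sirt6, a sirtuin (class III). They were chosen by name, as the transcript clusters annotated with exactly 1 of these symbols. A transcript cluster is the set of array probes summarised into 1 value for a gene. Each gene had 1 such cluster, so the set is 10 of 36685 clusters on the array and of 18533 with a single symbol. The cluster of Hdac9 carries its symbol under a pair of gene identifiers and was kept.

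Retinal ganglion cells, the neurons whose axons form the optic nerve, came from Sprague Dawley rats at postnatal day 4 and were purified by immunopanning. They were electroporated with mCherry (the control), wild-type Set-β (wt_Set) or myr-Set-β (myr_Set), and the cells of every group also received pMAX-GFP. GFP-positive cells were sorted the next day, so sorting selected for the GFP plasmid and not for Set-β itself, and RNA was extracted after 2 more days in culture, 3 days from transfection. Each group had 3 arrays, called biological replicates in their titles. Whether an array was a separate litter or culture, and how many animals it pooled, is not stated, so p-values cover only the spread among the arrays at hand, and that spread may be technical.

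Histone deacetylases remove acetyl groups from lysines, which on histones goes with tighter chromatin and lower transcription. Of class I, Hdac1, Hdac2 and Hdac3 act in the nucleus inside corepressor complexes. Class IIa enzymes shuttle between nucleus and cytoplasm and bind Mef2 factors, and Hdac6 deacetylates tubulin in the cytoplasm. Set belongs to a complex that masks histone tails from acetyltransferases, with members of the Anp32 family, and deacetylases are studied in ganglion cells for their part in axon injury and cell death. The comparisons ask whether either form of Set-β goes with other levels of these enzymes.

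Sequence upstream of the start site is shown for Hdac1 and Hdac2, the class I pair farthest below the control, and for Hdac9, whose groups overlapped in every comparison at the deposited scaling. RefSeq's promoter table (build GRCr8) held 8 of the 10 members, without Hdac11 and Sirt6. The 250 bases before the start are printed on the strand of the gene. They lie at chr5:147165388-147165637 (minus strand) for Hdac1, chr20:42102877-42103126 (plus strand) for Hdac2 and chr6:57052572-57052821 (minus strand) for Hdac9, whose table entry starts inside the annotated gene. Capitals mark GC boxes (GGGCGG or CCGCCC) and CCAAT boxes (CCAAT or ATTGG), and matches may overlap.
Hdac1: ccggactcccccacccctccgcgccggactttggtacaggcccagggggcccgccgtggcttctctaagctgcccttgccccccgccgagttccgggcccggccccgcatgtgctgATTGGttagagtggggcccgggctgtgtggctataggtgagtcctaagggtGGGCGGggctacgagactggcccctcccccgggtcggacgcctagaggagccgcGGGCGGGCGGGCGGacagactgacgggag
Hdac2: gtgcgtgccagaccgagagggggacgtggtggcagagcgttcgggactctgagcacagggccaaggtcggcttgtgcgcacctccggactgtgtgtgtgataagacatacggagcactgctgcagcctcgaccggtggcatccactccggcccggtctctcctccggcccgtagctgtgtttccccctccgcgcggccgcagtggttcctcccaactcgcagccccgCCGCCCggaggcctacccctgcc
Hdac9: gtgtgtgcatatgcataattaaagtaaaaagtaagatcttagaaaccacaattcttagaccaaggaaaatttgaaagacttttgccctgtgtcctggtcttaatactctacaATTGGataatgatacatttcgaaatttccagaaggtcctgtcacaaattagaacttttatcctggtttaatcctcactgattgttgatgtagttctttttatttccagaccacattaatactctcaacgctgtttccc

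The window of Hdac1 held 4 GC boxes, 3 of them overlapping in 1 run, and 1 CCAAT box. That of Hdac2 held 1 GC box, and that of Hdac9 no GC box and 1 CCAAT box. Over windows of the same length of 33469 genes, 30.5% held a GC box and 34% a CCAAT box. The Hdac1 and Hdac2 windows had 72.4% and 68.8% G and C with 23 CpG each, and the Hdac9 window 34.4% with 2 CpG. Over all windows the median was 51.2% with 5 CpG. Hdac3, Hdac4 and Hdac5, whose wt_Set arrays overlapped those of mCherry, had 62%, 64.4% and 58.8% with 18, 21 and 15 CpG. Hdac6 had 62.4% with 17 CpG and Hdac8 38.8% with 2. Whether base composition goes with the differences below was not tested. Of the other members, Hdac3 and Hdac5 had 1 GC box, Hdac4 had 3, Hdac6 had 4 and Hdac8 had none. The TATA box (TATAAA or TTTATA, in 12.9% of all windows) and the cAMP response element (TGACGTCA, in 1.59%) were searched too and were in none of the 8 windows.

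Values are log2 of the deposited intensities, whose median was 100 on each array. The arrays differed in how far their values spread. Values from the 10th to the 90th percentile spanned 4.29 to 4.54 log2 units in mCherry, 4.12 to 4.21 in wt_Set and 3.82 to 4.46 in myr_Set, the lowest on myr_Set replicate 1. That array also stood apart from the rest, with a mean correlation over clusters of 0.898 with the other arrays, against 0.912 to 0.944 for the other 8. Odorant receptor genes, not expected in these neurons, served as a mark of background (1128 clusters). Their median was 5.34 to 5.93 and their 90th percentile 6.89 to 7.64. Of 16 ganglion cell markers, 13 were above that percentile on every mCherry array, 13 on every wt_Set and 9 on every myr_Set array, and Nefh and Atoh7 on none of the 9 arrays. The summed linear intensity of this list was 11210 to 18852 in mCherry, 7048 to 12463 in wt_Set and 7634 to 13140 in myr_Set. All 15 tested markers of this list had lower means in both Set-β groups, against 77.1% and 74.4% of all genes. Their median difference was -0.54 in wt_Set and -0.60 in myr_Set, against -0.29 and -0.26 over all genes. The list of 10 dividing-cell markers, 9 of them measured, summed to 940.1 to 1329 in mCherry, 787 to 886 in wt_Set and 776 to 1038 in myr_Set, with Mki67, Top2a and 6 others not above that percentile on any array. The 12 amacrine and horizontal markers summed to 1514 to 2039, 1296 to 1491 and 1238 to 1687, with 7 of 12 (Gad1 and Chat among them) not above that percentile on any array. The sums of the photoreceptor and bipolar, glial, microglial and vascular lists overlapped between all groups, except that the photoreceptor and bipolar sum was 970 to 999 in wt_Set and 922 to 932 in myr_Set. The glial sum ran over all arrays from 1002 to 5313, the microglial from 1898 to 3298, the vascular from 1141 to 8458 and that of photoreceptors and bipolar cells from 862 to 1099. Unlike most genes, 8 of 10 tested microglial markers had higher means in both Set-β groups at the deposited scaling. Their median difference was 0.12 in wt_Set and 0.068 in myr_Set, with 2 higher at an unadjusted limma p under 0.05 in each. Over all 18343 tested clusters, 1865 and 1796 had such a p, and 29.9% and 29.3% of these were higher. Many microglial markers were near background. Of the 14 listed, 6 were above that percentile on every mCherry array, 4 on every wt_Set and 4 on every myr_Set array, and 5 on none. The part of these lists in the results below was not tested, and in bulk samples fewer cells of a type cannot be told apart from less RNA per cell.

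Among the class I enzymes, Hdac1 and Hdac2 had lower values in wt_Set than in mCherry on every array, whereas Hdac3 did not separate the groups. Hdac1 and Hdac2 are the paired catalytic subunits of the Sin3, NuRD and CoREST complexes. Hdac2 had a log2 intensity of 9.16, 8.79 and 9.29 on mCherry replicates 1 to 3, of 8.11, 8.49 and 7.92 in wt_Set, and of 7.62, 8.49 and 8.67 in myr_Set. All 6 Set-β arrays thus lay below all 3 mCherry arrays. The difference of wt_Set from mCherry was -0.91 ± 0.30 (SE; 1.88-fold lower), with an unadjusted p of 0.0139 and an adjusted p of 0.447 in limma, and that of myr_Set was -0.82 ± 0.30 (unadjusted p = 0.0223, limma adjusted p = 0.447). Without myr_Set replicate 1, which held the lowest value, the latter was -0.50.

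Hdac1 had 8.18, 7.77 and 8.57 in mCherry, 7.34, 7.22 and 7.35 in wt_Set and 6.47, 7.56 and 8.13 in myr_Set. The wt_Set arrays were close together below every control, while the myr_Set arrays ran from far below the control to within it. The difference from mCherry was -0.87 ± 0.39 in wt_Set (unadjusted p = 0.0524, limma adjusted p = 0.447), with a 95% interval from -1.75 to 0.011. In myr_Set it was -0.79 ± 0.39 (interval -1.67 to 0.096), and -0.33 without myr_Set replicate 1. Hdac1 was above the 90th percentile of odorant receptors on 3 of 3 mCherry arrays but on 1 of 3 wt_Set and 2 of 3 myr_Set arrays, so its wt_Set level is near background and no fold is given. Hdac2 was above it on 8 of 9 arrays, all but myr_Set replicate 1.

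Hdac3, the enzyme of the NCoR and SMRT corepressors, had 8.23, 7.82 and 7.98 in mCherry, 7.80, 7.47 and 8.08 in wt_Set and 7.37, 7.76 and 8.22 in myr_Set. The 3 groups overlapped. Its differences from mCherry were -0.23 ± 0.26 in wt_Set (interval -0.81 to 0.36) and -0.23 ± 0.26 in myr_Set (interval -0.81 to 0.35). In wt_Set the sign depended on the scaling, being 0.0058 with quantile normalization but also 0.0053 with cyclic loess, 2 procedures that equalise the spread of the arrays too. In myr_Set these values were -0.050 and 0.0031. At the deposited scaling the difference of Hdac3 was -0.068 in wt_Set without wt_Set replicate 2 and -0.38 without replicate 3, and -0.020 in myr_Set without myr_Set replicate 1 and -0.45 without replicate 3. The fourth class I gene, Hdac8, was the only member below the level filter (a mean log2 of at least 6.65) and was not tested. It had 6.16 to 6.27 in mCherry, 6.07 to 6.11 in wt_Set and 5.99 to 6.22 in myr_Set, and was above the 90th percentile of odorant receptors on none of the 9 arrays.

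**Figure D1:**
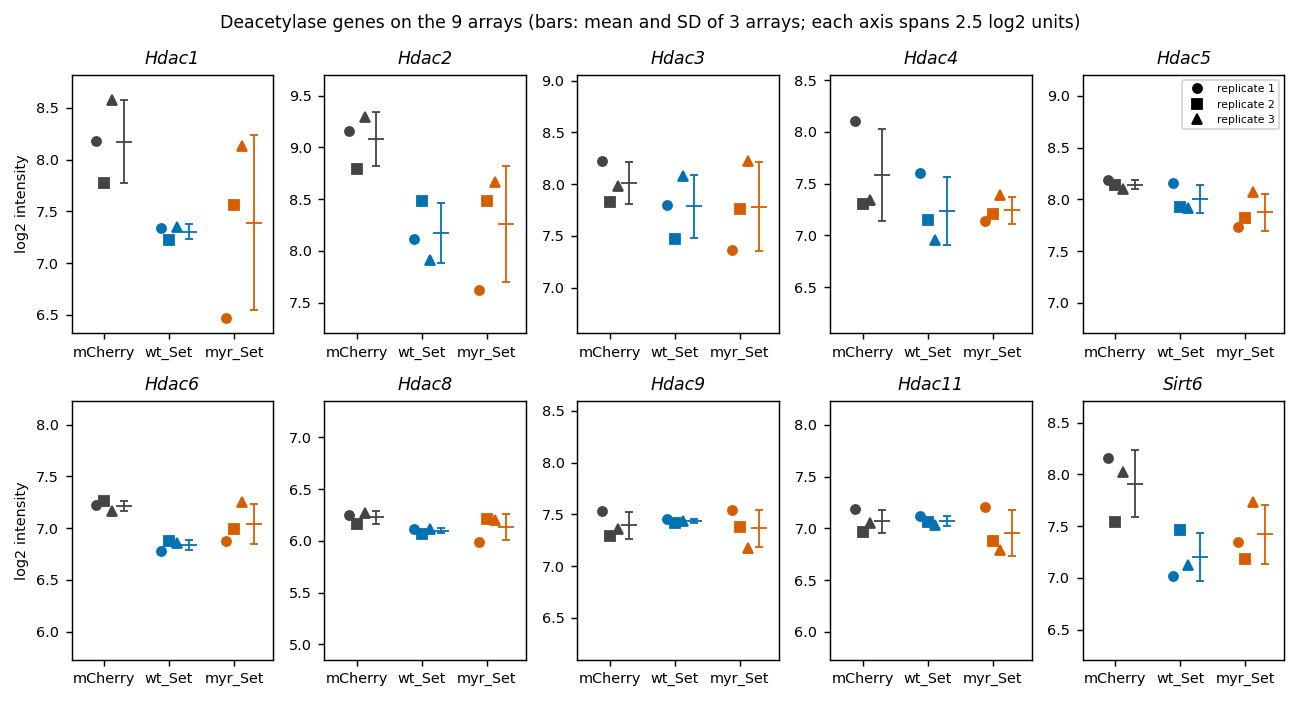
Log2 intensity (y axis; each panel spans 2.5 log2 units) of the 10 deacetylase genes on the 3 arrays of each group, with symbols for replicates and bars for mean and SD (n = 3). Hdac2 is lower on all 6 Set-β arrays than on the 3 mCherry arrays, and Hdac1 spans 6.47 to 8.13 in myr_Set.

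At the deposited scaling the wt_Set arrays overlapped those of mCherry for all 3 class IIa genes. These enzymes carry a long N-terminal domain that binds Mef2 transcription factors, and they leave the nucleus when phosphorylated. Hdac4 had 8.10, 7.31 and 7.34 in mCherry, 7.60, 7.15 and 6.96 in wt_Set and 7.13, 7.21 and 7.39 in myr_Set. Its mean in mCherry rested on replicate 1, and the groups overlapped. Against mCherry wt_Set differed by -0.35 ± 0.26 and myr_Set by -0.34 ± 0.26 (limma adjusted p = 0.489 and 0.498). Without mCherry replicate 1 these were -0.090 and -0.080, and without wt_Set replicate 1 the former was -0.53. Hdac4 was above the 90th percentile of odorant receptors on 4 of 9 arrays, so its differences are measured near background.

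Hdac5 had one of the narrowest ranges in the control, with 8.19, 8.14 and 8.10, against 8.16, 7.93 and 7.92 in wt_Set and 7.73, 7.82 and 8.07 in myr_Set. The myr_Set arrays lay below every mCherry array, by only 0.0277 at the closest pair, and overlapped them under the other scalings, while the wt_Set arrays overlapped the control. The differences were -0.14 ± 0.16 (interval -0.50 to 0.22) in wt_Set and -0.27 ± 0.16 (interval -0.63 to 0.094) in myr_Set. In wt_Set the sign depended on the scaling, being 0.12 under quantile normalization as under cyclic loess, and in myr_Set the difference shrank to -0.032 and -0.0031. Without wt_Set replicate 1 the wt_Set difference was -0.22. Hdac5 was above the 90th percentile of odorant receptors on all 9 arrays. Hdac9, which also gives a short form without the catalytic domain, had 7.29 to 7.53 in mCherry, 7.41 to 7.45 in wt_Set and 7.18 to 7.54 in myr_Set. The groups overlapped, with differences from mCherry of 0.041 ± 0.16 (interval -0.32 to 0.40) and -0.028 ± 0.16 (interval -0.39 to 0.33), the latter turning to 0.13 and 0.089 with quantile normalization and cyclic loess. Under these scalings the wt_Set arrays of Hdac9 lay above every mCherry array, as they did for 8.63% and 8.21% of all genes. The differences were 0.17 and 0.18 (limma unadjusted p = 0.370 and 0.327). Hdac9 was above the 90th percentile of odorant receptors on 5 of 9 arrays, so its values are near background.

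Hdac6, the cytoplasmic deacetylase of tubulin and cortactin, had 7.22, 7.26 and 7.16 in mCherry, 6.78, 6.87 and 6.86 in wt_Set and 6.88, 6.99 and 7.25 in myr_Set. Its wt_Set arrays were below every array of the other groups, although the lowest myr_Set array was only 0.0068 above the highest of wt_Set and these groups overlapped with cyclic loess. The difference of wt_Set from mCherry was -0.38 ± 0.15 (interval -0.73 to -0.025; unadjusted p = 0.0386, limma adjusted p = 0.447), which is close to the median difference of all genes given below. Relative to that median it was -0.090, and -0.21 with both quantile normalization and cyclic loess. In myr_Set the difference was -0.17 ± 0.15, and the arrays overlapped those of mCherry. It was -0.094 without myr_Set replicate 1 and -0.28 without myr_Set replicate 3. Hdac11, the class IV enzyme and a remover of long acyl groups, had 6.96 to 7.18 in mCherry, 7.03 to 7.12 in wt_Set and 6.79 to 7.21 in myr_Set. Its intervals were -0.37 to 0.38 for wt_Set and -0.48 to 0.26 for myr_Set against mCherry. Hdac6 and Hdac11 were above the 90th percentile of odorant receptors on 3 and 1 of 9 arrays, so their differences are measured near background.

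Sirt6, a nuclear NAD-dependent deacetylase of histone H3 with roles in DNA repair and glycolysis, had 8.16, 7.54 and 8.03 in mCherry and 7.02, 7.46 and 7.12 in wt_Set. In myr_Set it had 7.35, 7.18 and 7.73. The wt_Set arrays were below every mCherry array, by 0.0831 at the closest pair, while myr_Set overlapped with the control. The difference was -0.71 ± 0.23 in wt_Set (interval -1.23 to -0.18; unadjusted p = 0.014, limma adjusted p = 0.447) and -0.49 ± 0.23 in myr_Set (interval -1.01 to 0.039). Quantile normalization gave -0.52 for Sirt6 in wt_Set and cyclic loess -0.55, and its arrays did not overlap those of mCherry under either. Sirt6 was above the 90th percentile of odorant receptors on 3 of 3 mCherry arrays but on 1 of 3 in each Set-β group, so its lower values are near background too.

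Set against all genes, the members as a group were near the middle. In wt_Set 8 of 10 members had a lower mean than in mCherry, and in myr_Set 10 of 10. Of the 9 members past the filter 7 and 9 were lower, with a median of -0.35 and -0.27. Over the 10529 tested genes with 1 symbol the median was -0.29 and -0.26, with 77.1% and 74.4% lower. The myr_Set median of all genes rested on single arrays, being -0.11 without myr_Set replicate 1 and -0.41 without myr_Set replicate 3. The arrays of wt_Set lay wholly below mCherry for Hdac1, Hdac2, Hdac6 and Sirt6 (4 of 9 tested members), and so they did for 34.7% of all genes. In myr_Set this held for Hdac2 and Hdac5 (2 of 9), against 8.07% of genes. At an unadjusted p under 0.05 in limma there were 3 members in wt_Set (Hdac2, Hdac6, Sirt6) and 1 in myr_Set (Hdac2), all lower, against 8.71% and 8.6% of genes. At limma's adjusted p of 0.05 there was no member and no other cluster in any comparison (0% of 18343 clusters). An unadjusted p under 0.05 was found for 10.2% of clusters in wt_Set, 9.79% in myr_Set and 1.13% between both forms of Set-β. Both comparisons with mCherry use the same 3 control arrays, so their values are not independent.

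**Figure D2:**
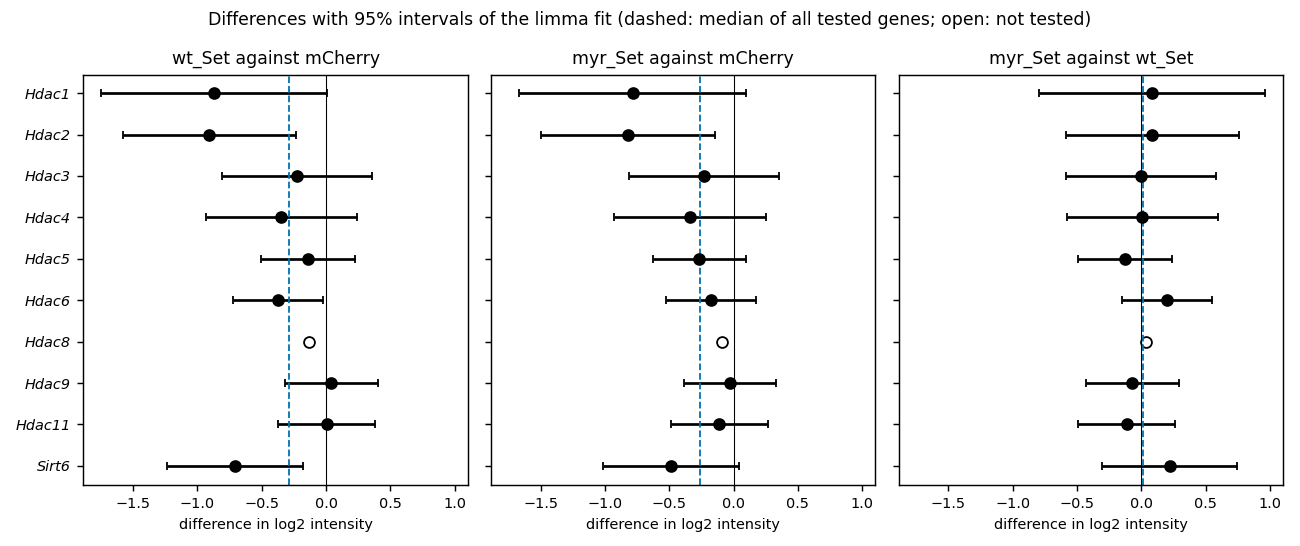
Difference in log2 intensity (x axis) of each deacetylase gene in the 3 comparisons, with 95% intervals from the limma fit of 9 arrays. The dashed line is the median of all tested genes (-0.29, -0.26 and 0.013), and Hdac8 (open circle) was not tested; only Hdac2, Hdac6 and Sirt6 in wt_Set and Hdac2 in myr_Set have intervals wholly below 0.

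The shift of all genes depended on the scaling. Under quantile normalization the 10529 genes had a median of -0.11 in wt_Set and -0.13 in myr_Set, and under cyclic loess of -0.12 and -0.094. Of these genes 65.1% and 64.3% were lower under quantile normalization, and 65.4% and 62.8% under cyclic loess. The share of higher clusters among those with an unadjusted p under 0.05 went from 29.9% to 62.1% and 54.5% in wt_Set and from 29.3% to 56.8% and 57.7% in myr_Set. Relative to the median of all genes, Hdac2 in wt_Set was at -0.62 as deposited, -0.46 if quantile normalized and -0.47 by cyclic loess. Hdac1 was at -0.58, -0.53 and -0.57, and Sirt6 at -0.42, -0.41 and -0.43. The wt_Set arrays of Hdac1, Hdac2, Hdac6 and Sirt6 (4 of 9 tested members) lay below all mCherry arrays under each of the 3 scalings. Under each scaling taken alone, this was so for 34.7%, 15.3% and 16.1% of tested genes. The share of genes under all 3 scalings together was not counted. The wt_Set arrays of Hdac8, which was below the level filter and not tested, also lay below all mCherry arrays under each scaling. For Hdac2 in wt_Set limma's unadjusted p was 0.0341 if quantile normalized and 0.0129 by cyclic loess, and that of Sirt6 was 0.0264 and 0.0207. For Hdac6 these were 0.0534 and 0.0517, and for Hdac1 0.105 and 0.062.

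**Figure D3:**
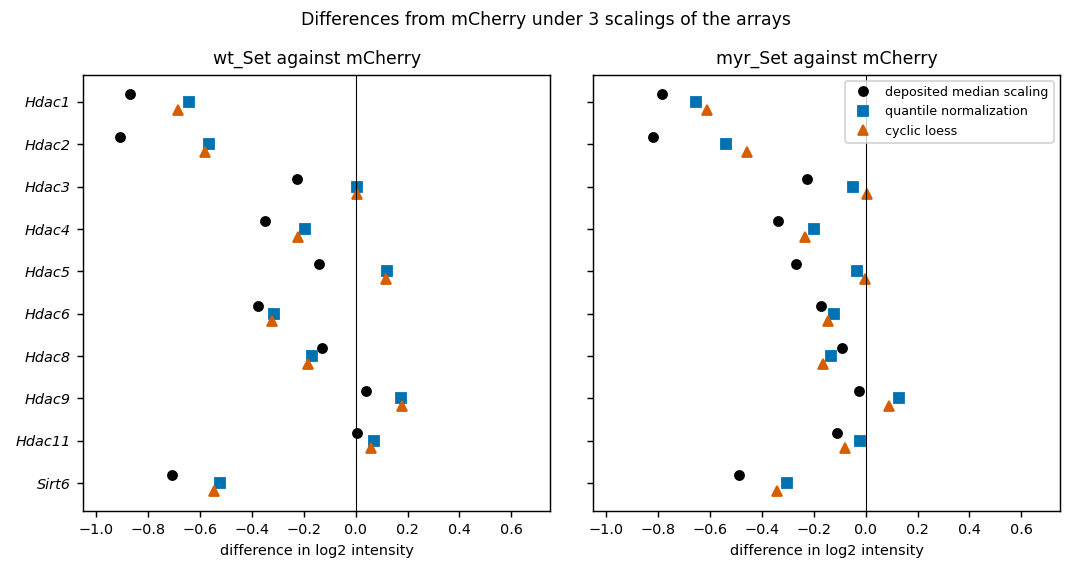
Difference from mCherry in log2 intensity (x axis) of the 10 deacetylase genes under the deposited median scaling, quantile normalization and cyclic loess. Hdac1, Hdac2 and Sirt6 stay at or below -0.30 in both panels, while Hdac3 and Hdac5 in wt_Set and Hdac3 and Hdac9 in myr_Set cross 0.

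Between wt_Set and myr_Set the members were close together on average, with wide intervals. The difference of myr_Set from wt_Set was 0.084 ± 0.39 for Hdac1 (interval -0.80 to 0.96), 0.087 ± 0.30 for Hdac2 (-0.59 to 0.76) and 0.22 ± 0.23 for Sirt6 (-0.30 to 0.75). For Hdac6, where the arrays did not overlap, it was 0.20 ± 0.15 (-0.15 to 0.55), and 0.096 without myr_Set replicate 3. The other 5 tested members lay between -0.13 (Hdac5) and 0.0093 (Hdac4). Limma's adjusted p rounded to 1 for every tested member, and intervals this wide do not show that the forms act alike. Higher and not overlapping in myr_Set was 1 of 9 tested members, against 2.51% of genes.

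For 8 of 10 members the SD was highest in myr_Set, with Hdac4 and Sirt6 the exceptions. The SD of Hdac1 was 0.845 in myr_Set, 0.40 in mCherry and 0.0735 in wt_Set, and that of Hdac2 was 0.559, 0.263 and 0.29. Of the 10 members, 5 had their lowest value of all arrays on myr_Set replicate 1 (Hdac1, Hdac2, Hdac3, Hdac5 and Hdac8), the array with the narrowest signal range. Hdac9 and Hdac11 had their highest there. On mCherry replicate 1, the array with the widest range, all 10 members were above their own mean and 4 were at their highest. On myr_Set replicate 2, 9 of 10 members were below their own mean, and on replicate 3 only 2. Whether the signal range sets these values was not tested.

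The genes whose array pattern was most like each member's were found over the 9 arrays by the root-mean-square difference of mean-centred log2 values among 10520 tested genes. The closest to Hdac1 was Psma4, a proteasome subunit (0.0886 log2 units), and the closest to Hdac2 was Taf9, a subunit of TFIID (0.0902). Sirt6 was closest to Thumpd3 (0.113), Hdac3 to Spint2 (0.071), Hdac4 to Igf2bp2, an RNA-binding protein (0.0518), and Hdac5 to Pmvk, an enzyme of sterol synthesis (0.0613). For Hdac6 it was the histone gene Hist1h2bg (0.0644), for Hdac9 Troap (0.0482) and for Hdac11 Capn12 (0.0692). For comparison, the SD of the member itself over the 9 arrays was 0.626 for Hdac1 and 0.115 for Hdac9. All these values share the arrays and their scaling, so the likeness is a description only.

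Other genes of lysine acetylation were counted from fixed lists, and none of their members passed limma's adjusted p of 0.05. The remaining deacetylases (8 genes, Sirt1 without a single-symbol cluster, 6 past the filter) had a median difference of -0.11 in wt_Set and -0.0048 in myr_Set, closer to 0 than the median of all genes, and of -0.0056 and 0.057 with quantile normalization. Hdac7 of class IIa had -0.11 ± 0.17 and 0.030 ± 0.17, and Hdac10 of class IIb, a polyamine deacetylase, -0.0043 ± 0.14 and -0.039 ± 0.14. The group means of Hdac7, Hdac10, Sirt3 and Sirt4 ran from 6.76 to 7.48. The 90th percentile of odorant receptors was 6.89 to 7.64, so the differences of these genes are measured near background. Among the 6 tested, only Sirt5, the mitochondrial remover of succinyl groups, had all Set-β arrays below the control. It had 8.51, 8.48 and 8.49 in mCherry, 8.34, 8.19 and 7.69 in wt_Set and 7.67, 7.56 and 8.45 in myr_Set. The closest pair for myr_Set was thus 8.45 against 8.48. Arrays lay wholly below mCherry for 34.7% of all genes in wt_Set and 8.07% in myr_Set. The differences were -0.42 ± 0.27 and -0.60 ± 0.27 (limma unadjusted p = 0.149 and 0.0512). The other gene that the rule for names selected, mitochondrial Sirt3, had -0.13 ± 0.15 and 0.083 ± 0.15.

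Subunits of the corepressor complexes that hold Hdac1, Hdac2 and Hdac3 (45 genes, 34 past the filter) were lower than mCherry in 32 of 34 in both Set-β groups. Their medians were -0.42 in wt_Set and -0.32 in myr_Set, against -0.29 and -0.26 over all genes, of which 77.1% and 74.4% were lower. Arrays lay wholly below mCherry for 20 of 34 in wt_Set and 0 of 34 in myr_Set, against 34.7% and 8.07% of all genes. The unadjusted p in limma was under 0.05 and the mean lower for 4 and 1 of 34, against 8.71% and 8.6% of all genes. Among them Mta3 of NuRD had -0.56 ± 0.23 and -0.52 ± 0.23, and Gatad2b, also of NuRD, -0.77 ± 0.32 and -0.62 ± 0.32. With quantile normalization 30 and 26 of 34 were lower, against 65.1% and 64.3% of all genes. The medians were then -0.23 and -0.17, against -0.11 and -0.13 over all genes.

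The acetyltransferases that oppose the deacetylases (19 genes, 17 past the filter) were lower in 17 of 17 in both groups, with medians of -0.48 and -0.39. Of all genes 77.1% and 74.4% were lower, with medians of -0.29 and -0.26. With quantile normalization 13 and 12 of 17 were lower, at -0.21 and -0.19, against 65.1% and 64.3% of all genes at -0.11 and -0.13. Kat5, the catalytic subunit of NuA4, had -0.54 ± 0.21 and -0.39 ± 0.21, and Taf1 of TFIID -0.70 ± 0.30 and -0.34 ± 0.30. Readers of acetyl-lysine (21 genes, 17 past the filter) had 17 and 15 of 17 lower, with medians of -0.50 and -0.43, and with quantile normalization 15 and 13 lower at -0.23 and -0.30. The YEATS protein Mllt3 had -0.50 ± 0.22 and -0.73 ± 0.22, and Baz1b, of the WICH remodelling complex, -0.66 ± 0.28 and -0.85 ± 0.28. The shift of all genes described above runs in the same direction as these counts.

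The Anp32 genes, partners of Set in masking histone tails, had the largest differences of the 7 other lists in the median. All 3 were lower in both Set-β groups, as were 77.1% and 74.4% of all genes, and Set itself carried no single-symbol cluster. Anp32a had 9.26, 8.61 and 9.90 in mCherry, 8.06, 7.95 and 8.05 in wt_Set and 7.31, 8.34 and 9.62 in myr_Set. As with Hdac1, its wt_Set arrays were close together below the control and its myr_Set arrays spread from far below to within it. The difference was -1.24 ± 0.53 in wt_Set (unadjusted p = 0.0458, limma adjusted p = 0.447) and -0.83 ± 0.53 in myr_Set, and Anp32e had -1.08 ± 0.46 and -0.87 ± 0.46. The list's median was -1.08 and -0.83, and -0.74 and -0.61 with quantile normalization.

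Partners of the class IIa enzymes (22 genes, 16 past the filter: Mef2 factors, calcium-dependent kinases, 14-3-3 proteins and ankyrin-repeat binders) had 14 and 12 of 16 lower, with medians of -0.40 and -0.45, and with quantile normalization 13 and 10 lower at -0.20 and -0.23. With cyclic loess 12 and 10 were lower, at -0.16 and -0.044, against -0.12 and -0.094 over all genes. Ankra2, which binds Hdac4 and Hdac5, had -0.55 ± 0.22 and -0.66 ± 0.22 in the cluster of higher mean, whereas its other cluster, below the filter, had -0.065 and 0.47. Mef2b was higher on every wt_Set array than in mCherry (6.83, 6.93 and 6.90 against 6.50, 6.60 and 6.51; difference 0.35 ± 0.15), at a level below the 90th percentile of odorant receptors on all 6 of these arrays. It was the only 1 of 16 to lie wholly above mCherry in wt_Set, against 4.22% of all genes. Genes related to Hdac6 (9 genes, 7 past the filter) were lower in 7 of 7 in both groups, with medians of -0.60 and -0.62, and with quantile normalization in 7 and 6 of 7 at -0.36 and -0.37. Sqstm1, the ubiquitin-binding autophagy receptor, had -0.59 ± 0.30 and -0.80 ± 0.30, and the chaperone Hsp90ab1 -0.53 ± 0.41 and -0.80 ± 0.41. Hsp90ab1 had 9.36, 10.83 and 11.20 in myr_Set, against 11.22 to 11.36 in mCherry. Both genes had their lowest value of all arrays on myr_Set replicate 1, as had Gatad2b, Mllt3, Baz1b, Anp32a, Anp32e and Ankra2. The other genes named from the lists by smallest p (Sirt3, Sirt5, Mta3, Kat5, Taf1 and Mef2b) had not.

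**Figure D4:**
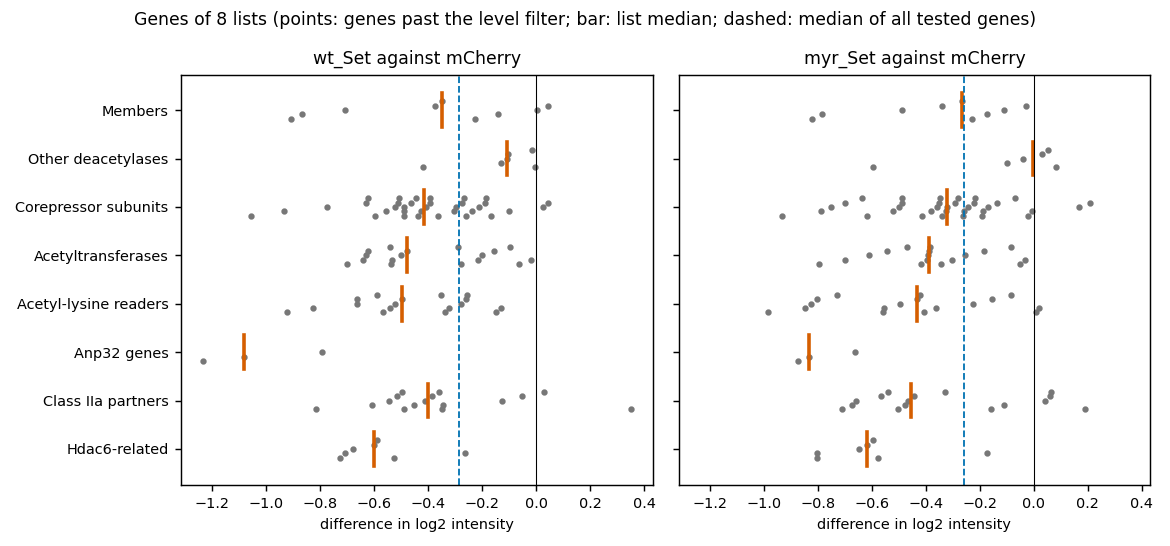
Difference from mCherry in log2 intensity (x axis) of the genes past the level filter in the deacetylase members and 7 related lists, with the list median as a bar. The dashed line is the median of all tested genes; the median of the remaining deacetylases lies to its right (-0.11 and -0.0048), with Sirt5 to its left, and the median of the Anp32 genes farthest to its left (-1.08 and -0.83).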

How the data were processed

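RNA was amplified and hybridised to Affymetrix Rat Gene 2.0 ST arrays, per the series' design text. Per the submitters' processing notes the authors used RMA in Affymetrix Expression Console, and per the design text they then scaled each array to its median. The deposited intensity values are on a linear scale. No source used here names the genome build.

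Values were log2-transformed, without a further offset. Limma 3.58.1 in R 4.3.3 (lmFit and eBayes, two-sided) was fitted to the 3 groups together, over 9 arrays. Only clusters whose mean log2 reached the median over clusters (6.65) were tested, and p-values were adjusted by Benjamini-Hochberg over the remaining 18343 clusters, with a threshold of 0.05. The script was tested on simulated data. A gene with several clusters was represented by that of highest mean. Symbols came from the platform annotation, updated through RefSeq gene identifiers (18416 of 18533 matched, 553 clusters had several symbols and 17599 none). The members and lists were chosen with earlier results of these data known. The text names all members, the gene closest in pattern to each, and the 2 genes of smallest p in each list. Alternatives were quantile normalization, cyclic loess, other level filters, fits of 2 groups, a replicate block and leaving out each array.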

Additional observations from a re-analysis of the deposited data

How the results depend on the processing

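No cluster and no member reached an adjusted p of 0.05 under any alternative run, the smallest for a member being 0.105. Against mCherry, member differences kept their direction in 136 of 144 values for wt_Set and 139 of 144 for myr_Set, and in 127 of 144 between both forms. Other level filters, fits of 2 groups, the replicate block and leaving out an array of the group not compared leave each difference unchanged. Such values could not turn, so these counts overstate how stable the directions were. The values that did turn (8, 5 and 17) came from rescaling or from leaving out a compared array. With quantile normalization the sign turned for Hdac3 (0.0058) and Hdac5 (0.12) in wt_Set, Hdac9 in myr_Set (0.13), and Hdac1 (-0.010) and Hdac4 (-0.0034) in myr_Set against wt_Set. With cyclic loess it turned for Hdac3 (0.0053) and Hdac5 (0.12) in wt_Set, Hdac3 (0.0031) and Hdac9 (0.089) in myr_Set, and Hdac4 (-0.011) between both forms. Leaving out 1 array moved Hdac9 from -0.010 to 0.11 and Hdac11 from -0.048 to 0.061 in wt_Set, and Hdac9 from -0.12 to 0.065 in myr_Set. Between both forms it moved Hdac1 from -0.29 to 0.54, Hdac2 from -0.12 to 0.41, Hdac3 from -0.22 to 0.21, Hdac4 from -0.13 to 0.19, Hdac8 from -0.0027 to 0.11 and Hdac9 from -0.16 to 0.024. The cause was not tested.

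Clusters with an unadjusted p under 0.05 numbered 1865 in wt_Set, 1796 in myr_Set and 208 between both forms. They numbered 3043, 2986 and 749 without a level filter, and 885, 842 and 70 with a filter at the 75th percentile, which test more and fewer clusters and left 6 members untested in the latter. With only the groups compared in the fit there were 4262 in wt_Set and 891 in myr_Set. Leaving out 1 array gave 880 (without mCherry replicate 1) to 3862 (without myr_Set replicate 1) in wt_Set, 642 (without myr_Set replicate 1) to 6141 (without myr_Set replicate 3) in myr_Set, and 182 to 833 (without myr_Set replicate 1) between both forms. Counts also moved beyond the range taken as the same without mCherry replicate 3 (992 and 994 in wt_Set and myr_Set), wt_Set replicate 2 (1052 in wt_Set), wt_Set replicate 3 (914 in wt_Set), mCherry replicate 1 (741 in myr_Set), mCherry replicate 2 (2729 in myr_Set), myr_Set replicate 2 (1033 in myr_Set) and myr_Set replicate 3 (3222 in wt_Set, 590 between both forms). Whether same-numbered replicates share more than a number is not stated. Correlations of their deviations from the group means ran from -0.069 to 0.38 over 9 pairs. Those of differently numbered arrays ran from -0.40 to 0.36 over 18 pairs. With the replicate block the counts were 1937, 1754 and 251, and it ended or made no call at the adjusted threshold. At an unadjusted p under 0.05 in limma, the block lost Hdac6 in wt_Set (0.0622) and gained Hdac1 in wt_Set (0.0389). Each member had 1 cluster, so another cluster could not be tried. With 3 arrays a group, and several members near background, differences below about the printed intervals could not be resolved.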
